A study of Hydra vulgaris with 12 samples.

Results

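Hyli is one of the PIWI proteins of the freshwater polyp Hydra, and the small RNA bound to it was compared between animals depleted of their interstitial cells with colchicine and wild-type animals. Transcripts were compared on a strand when they reached at least 10 CPM (counts per 1000000 of that strand's total) in either library. This held for 6057 transcripts on the sense strand and 7615 on the antisense strand of the 38747 transcripts listed, or for 10354 (26.7%) on at least 1 strand. Of these, 3318 were compared on both strands, 2739 on the sense strand alone and 4297 on the antisense strand alone. At the border, t17001aep entered with 10.01 sense CPM in wild type and 1.05 in colchicine, and t30372aep stayed out with 9.97 and 8.08. On the antisense strand t22592aep entered with 2.87 and 10.00 CPM, and t32924aep stayed out with 0.407 and 9.99.

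PIWI proteins bind piRNAs, short RNAs that guide them to matching transcripts, many of them from transposons. A transcript cut under the guidance of an antisense piRNA can yield a new sense piRNA that is loaded into a second PIWI protein, a cycle known as ping-pong. In Hydra, Hywi is known to carry mostly antisense and Hyli mostly sense piRNAs, and both proteins are present in interstitial and epithelial stem cells.

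The wild-type Hyli library came from an immunoprecipitate of 225 whole animals of strain AEP. The colchicine library came from 225 treated whole animals of the same strain that carried the cnnos1::GFP transgene and that the submitters describe as epithelialized and depleted of interstitial cells. Treatment and transgenic line therefore cannot be told apart. Other readouts of the same series were set beside the Hyli values. These were 1 wild-type and 1 colchicine immunoprecipitate of Hywi (225 animals each), 1 wild-type and 1 colchicine library of capless RNA ends, called the degradome (20 animals each), and mRNA of hatchlings. The mRNA libraries were made 4 days after hatching from 10 animals each, with 3 libraries of offspring of a hywi RNAi line that carried a hairpin against hywi in epithelial stem cells and 3 of wild-type siblings without it. No mRNA of colchicine-treated animals was analysed here, and whether the Hyli and Hywi libraries came from the same animals is not stated.

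The wild-type Hyli library held 28.8 M sense and 11.7 M antisense counts (M, 1000000), and the colchicine library 6.68 and 6.16 M. The minimum of 10 CPM corresponded to 288 and 66.8 sense counts and to 117 and 61.6 antisense counts. With 1 library a side, no difference below carries a test between conditions, the spread between replicate animals is unknown, and intervals cover counting error only. Many values are fractions, as when a read matching several transcripts is divided among them: 37.2% (wild type) and 31.8% (colchicine) of sense values and 97.1% and 91.8% of antisense values of at least 100 counts were not whole within 0.01. Values of single transcripts, and those of the antisense strand above all, may therefore belong in part to related transcripts. The transcript names were not paired with genes, so transposons, cell type markers and the depletion of interstitial cells itself were not analysed here, and transcripts are given by name. Fewer cells of a type and less RNA per cell cannot be told apart in these whole-animal libraries.

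The Hyli-bound sense RNA of most transcripts differed widely between the libraries. In colchicine, 1439 transcripts (23.8% of 6057) were higher by 4-fold or more on a log2 scale with 1 CPM added, so that changes of scarce transcripts appear too small, and 1174 (19.4%) were lower by as much. Only 1658 (27.4%) stayed within 2-fold, while 404 were higher and 150 lower by 16-fold or more. The middle 80% of log2 ratios ran from -2.67 to 3.51 around a median of -0.43, which was 0.42 at a minimum of 1 CPM. Of the compared transcripts, 3285 reached 10 CPM in both libraries, 1139 in wild type alone and 1633 in colchicine alone. Those that reached it in 1 library alone had to be higher there in some degree, and many calls entered this way. With 10 CPM in both libraries, 165 of 2801 transcripts with under 10 mRNA CPM in wild-type siblings were higher and 429 lower. Of 484 with at least 10 mRNA CPM, 62 were higher and 50 lower. For each transcript past 4-fold the 95% counting interval of the ratio lay beyond 2-fold. The minimum of 10 CPM and the 4-fold rule fix this outcome at these depths, so it adds no support to the calls.

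The direction of the balance was not fixed by the data, because it depends on the scale and on which transcripts are compared. Scaling by the median ratio of all transcripts with counts in both libraries shifted the sense log2 ratios by -0.79 and gave 1024 higher and 2048 lower, so that 33.3% of the calls were higher in place of 55.1%. Scaling by the median ratio of the compared transcripts alone shifted them by 0.42 and gave 1672 and 828 (66.9% higher). With the total of both strands the shift was -0.45, with 1133 higher and 1590 lower (41.6% higher). At a minimum of 50 CPM the split was 499 and 626 (44.4% higher). Without the 10 largest transcripts of each library the higher share was 63.6%. Values below are relative to the strand total unless another scale is named.

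**Figure D1:**
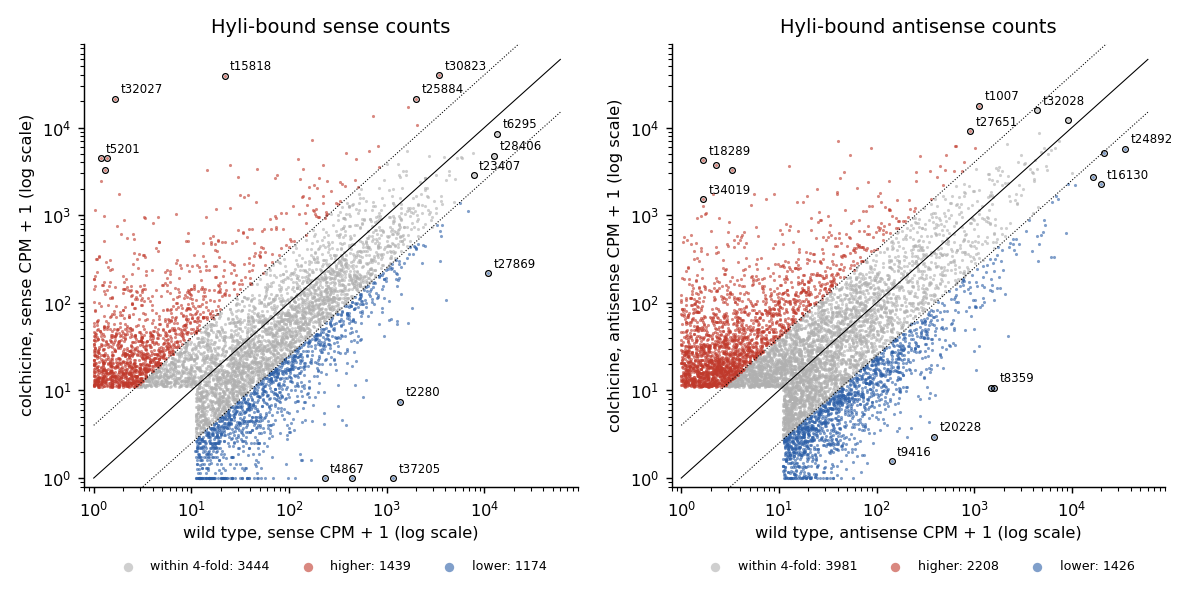
Hyli-bound sense (left) and antisense (right) CPM + 1 of each compared transcript in the wild-type library (x axis, log scale) and the colchicine library (y axis, log scale), with transcripts higher by 4-fold or more in red, those lower by as much in blue and the rest in grey. The solid line marks equal values and the dotted lines 4-fold, circles mark named transcripts, and the sense plot shows t15818aep near 39086 CPM in colchicine against 20.8 in wild type.

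Each class carried a different share of the library in the 2 conditions. The 1439 sense transcripts in the higher class held 2.97% of wild-type and 41.8% of colchicine sense counts, with medians of 1.77 and 30.8 CPM. The lower class went from 24.6% to 3.63% of sense counts, with medians of 57.1 and 6.17 CPM. The 3444 transcripts between the thresholds held 70.8% and 52.3%. These shares describe how the classes were drawn. At this depth the 95% Wilson interval of any share of a Hyli strand's counts is at most 0.0395 percentage points to each side.

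Large changes were found at every level of abundance from a mean of 20 CPM upwards. Among the 419 sense transcripts with a mean of at least 500 CPM over both libraries, 73 were higher and 61 lower. Among the 1181 with 100 to 500 CPM these were 141 and 227, among the 793 with 50 to 100 CPM 128 and 167, and among the 1339 with 20 to 50 CPM 294 and 283. The compared transcripts with a mean under 20 CPM held the larger part of the higher calls and the smaller part of the lower ones. The differences were thus not limited to scarce transcripts, though the higher calls were most numerous there.

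The 4 most counted sense transcripts of the colchicine library held 12.1% of its sense counts and 0.550% of those of wild type. The most counted was t30823aep, which went from 99826 sense counts (3469 CPM) in the wild-type library to 262867 (39349.5 CPM), 11.3-fold higher (95% counting interval 11.3 to 11.4). It ranked 25 in wild type and 1 in colchicine. Its mRNA stood at 972 ± 636 CPM in wild-type siblings (SD, n = 3), and in the Hywi immunoprecipitates it was also almost wholly sense, with 25161 and 73821 sense CPM against 0.205 and 0.561 antisense CPM.

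Next came t15818aep, which went from 600 sense counts (20.8 CPM) to 261108 (39086 CPM), 1875-fold higher. It ranked 3421 in wild type and 2 in colchicine. The Hywi sense values of this transcript went from 385.7 to 1547 CPM, and its mRNA was at 596 ± 167 CPM in wild-type siblings (SD, n = 3). For t25884aep, which ranked 65 and 3, the values were 57956 and 143386 sense counts (10.7-fold higher). Unlike the former, it had many Hywi antisense counts, at 711 and 3085 CPM.

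The fourth, t32027aep, also had the highest ratio of all, with 19 sense counts (0.660 CPM) in the wild-type and 142635 (21352 CPM) in the colchicine library, 32341-fold higher with a counting interval of 20709 to 53719. Its Hywi antisense level went from 0.142 to 51.7 CPM, and its degradome counts from 0 to 129. The other highest ratios belonged to t5201aep and t5202aep, with 5 and 11 wild-type counts and 29940.2 in colchicine each, and to t11850aep, with 9 and 22184. Equal values in t5201aep and t5202aep are a sign of shared reads, so they count as 1 signal. In t11850aep the mRNA stood at 92.4 ± 7.49 CPM (SD, n = 3), against 2.65 ± 0.0748 in t32027aep.

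The leaders of the wild-type sense strand behaved differently. The first of them, t6295aep, went from 389079 counts (13519 CPM) to 57092 (8546 CPM), 1.58-fold lower (1.57 to 1.60). Both t28406aep, with 362744 and 31802 counts, and t23407aep, with 223952 and 19074, were lower by less than 4-fold (2.65 and 2.72). By contrast t27869aep went from 312630 counts (10863 CPM) to 1448 (217 CPM), 50.1-fold lower (47.6 to 52.8). Its Hyli antisense counts went from 379 to 0, its Hywi antisense level from 283 to 2.33 CPM, and its degradome counts from 2946 to 3.

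Some abundant sense signals were not detected in colchicine. The lowest ratios were those of t37205aep, t31540aep (12786 counts and 0, at least 989-fold lower), t4867aep (6646 and 0, at least 514-fold lower) and t2280aep (39221 and 43, 212-fold lower). Bounds are against a floor of 3 counts, which is 0.104 sense CPM in wild type and 0.449 in colchicine. Sense loss did not always come with antisense loss. Although t37205aep had 0 sense counts in colchicine, its antisense level was 64.9 and 68.2 CPM, and its Hywi antisense level 371 and 686 CPM. In t2280aep the antisense level was 13.4 and 21.3 CPM, whereas in t4867aep it was 34.8 and 5.16. All 4 had degradome counts in wild type (467, 128, 52 and 442) and 0 in colchicine.

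Other abundant transcripts differed little in sense level. Of the 419 with a mean of at least 500 CPM, 285 were within 4-fold and 154 within 2-fold. Among the 100 with most sense CPM, the smallest changes were those of t5209aep and t26206aep, both at 2478 CPM in wild type and 1.06-fold higher in colchicine, and of t31988aep, with 2175 and 2372 CPM. The values of the first 2 are equal to within 1 count, again a sign of shared reads. Their antisense levels were 3.53-fold lower all the same, at 249 and 70.6 CPM.

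Antisense RNA bound to Hyli differed between the libraries as widely. In colchicine 2208 transcripts (29.0% of 7615) were higher by 4-fold or more and 1426 (18.7%) lower by as much. Within 2-fold stayed 1976 (25.9%), and 608 were higher and 174 lower by 16-fold or more. Of the 7615, 3454 reached 10 CPM in both libraries, 1572 in wild type alone and 2589 in colchicine alone. Here too, entry through 1 library alone required a higher value there in some degree. The higher class went from 2.86% to 36.5% of antisense counts and the lower class from 41.3% to 6.03%. The median log2 ratio was 0.48, and -0.19 with the median ratio of all transcripts. Here too the balance moved with the scale: 60.8% of the calls were higher with strand totals, 44.7% with the median ratio of all transcripts (1633 higher, 2021 lower, shift -0.70), 49.2% with that of the compared ones (1794 and 1854, shift -0.51) and 80.9% with the total of both strands (2623 and 618, shift 0.73).

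The 4 most counted antisense transcripts of the wild-type library were lower in colchicine. First was t24892aep, with 411213 counts (35087 CPM) and 35480 (5761 CPM), 6.09-fold lower. In the Hywi immunoprecipitates it was higher in colchicine, at 34883.5 antisense CPM against 7733. For t5148aep the Hyli values were 247168 and 31526 antisense counts (4.12-fold lower), for t16130aep 232976 and 13939 (8.78-fold lower) and for t35489aep 191924 and 16714 (6.03-fold lower). Unlike t24892aep, these 3 had little Hywi antisense RNA, at 34.6, 34.7 and 59.2 in wild type and 3.84, 1.46 and 3.40 CPM in colchicine.

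In colchicine the first antisense transcript was t1007aep. It went from 13153 (1122 CPM) to 109195 (17731 CPM), 15.8-fold higher, while its sense level was 2.67-fold lower (150 and 56.3 CPM). Its Hywi counts lay mostly on the other strand, at 14683 and 1076 sense CPM, with an antisense share of 0.469% in wild type and 22.5% in colchicine (10.0 and 51.2 antisense CPM). The next were t32028aep, with 51422 and 97922 antisense counts (3.62-fold higher), t30326aep, with 105848 and 74786 (1.34-fold higher in CPM), and t27651aep, with 10638 and 56360 (10.1-fold higher).

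The highest and lowest ratios on the antisense strand were less extreme than those on the sense strand. From 7.95 to 26024 counts went t18289aep, 6230-fold higher with a counting interval of 3141 to 14341. The other highest ratios were those of t33671aep (14.8 and 23118 counts), t9872aep (27.5 and 20112) and t34019aep (8 and 9315). In the first 3 no sense count was found in either library, and their mRNA was at or under 0.372 CPM on average. The lowest ratios were 165-fold lower in t8359aep (18796 and 60 counts), 151-fold lower in t24249aep (17350 and 60.3), 196-fold lower in t20228aep (4534 and 12.2) and 250-fold lower in t9416aep (1662 and 3.5 counts, interval 85.1 to 802).

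The concentration of counts moved in opposite directions on the strands. The 100 largest sense transcripts held 30.2% of their strand in wild type and 42.5% in colchicine, and 50% of that strand lay in 286 and in 163 transcripts. On the antisense strand the 100 largest held 43.5% and 37.0%, and 50% of the counts lay in 148 and in 214. Of the 100 largest, 37 were shared between the libraries on the sense strand and 46 on the antisense strand, and of the 10 largest 1 and 2 were.

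**Figure D2:**
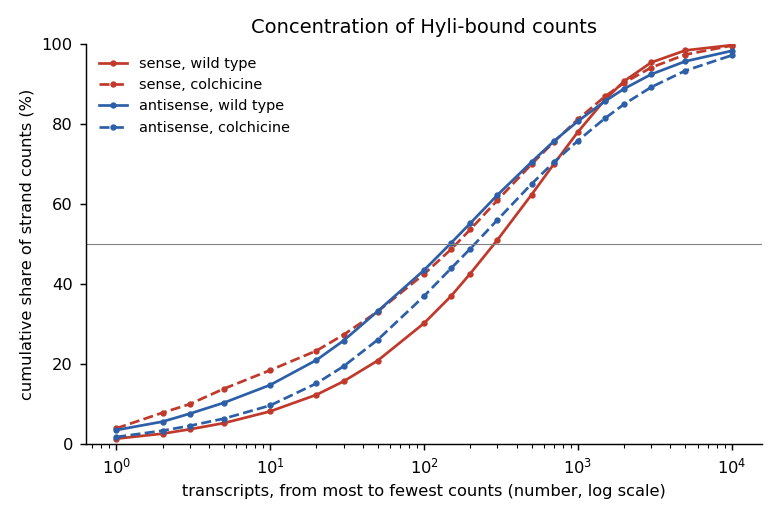
Cumulative share of strand counts (y axis, percent) held by the largest transcripts of a Hyli library (x axis, number of transcripts, log scale), for sense (red) and antisense (blue) counts in wild type (solid) and colchicine (dashed). The sense curve lies higher in colchicine than in wild type over the first 1000 transcripts, at 42.5% against 30.2% for 100, and the antisense curve lies lower, at 37.0% against 43.5%.

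Of the 100 largest wild-type sense transcripts 87 were lower in colchicine in any degree, 23 of them past 4-fold, and 4 were higher past 4-fold. Of the 100 largest colchicine sense transcripts 48 were higher past 4-fold and 0 lower. On the antisense strand 43 of the wild-type 100 were lower past 4-fold and 0 higher, while 36 of the colchicine 100 were higher and 7 lower. A choice by level in 1 library favours one direction, so these counts are a description. The Hywi counts of the same condition lay mostly on the opposite strand for 91 (wild type) and 90 (colchicine) of the 100 in the sense lists. In the antisense lists this held for 49 and 32 of the 100. Over the whole Hywi libraries 87.4% (wild type) and 85.9% (colchicine) of counts were antisense, so the 91 and 90 do not set the sense lists apart. At least 100 Hywi counts were present for 100 and 96 of the sense lists and for 95 and 84 of the antisense lists.

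The antisense share of all Hyli counts was 28.9% in wild type (95% Wilson interval 28.92 to 28.95%) and 48.0% in colchicine (47.94 to 47.99%), and the change of 19.0 percentage points can be divided. Holding each transcript's share of the library fixed, at the mean of both libraries, changed strand shares within transcripts gave 6.66 points. Changed weights of the transcripts, at fixed strand shares, gave the remaining 12.4 points. The part within transcripts was 7.93 points with wild-type weights and 5.39 with colchicine weights. The larger part of the difference thus lay in which transcripts held the counts, and a smaller part in the strand within the same transcript. In the Hywi libraries the antisense share changed by -1.44 points.

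Within transcripts the antisense share was more often higher in colchicine than lower. Of 6003 transcripts with at least 100 counts in each library, both strands together, it was higher in 4146 (69.1%), lower in 1672 and equal in 185. The Wilson intervals of the libraries did not touch for 3086 transcripts with a higher and 988 with a lower share. The share was more than 20 points higher in 1373 and more than 20 points lower in 273. At 100 counts the interval of a share near 50% reaches 9.62 points to each side. Transcripts with 10% or less antisense went from 2557 to 1578, those with 90% or more from 1404 to 1728, and those between from 2042 to 2697.

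**Figure D3:**
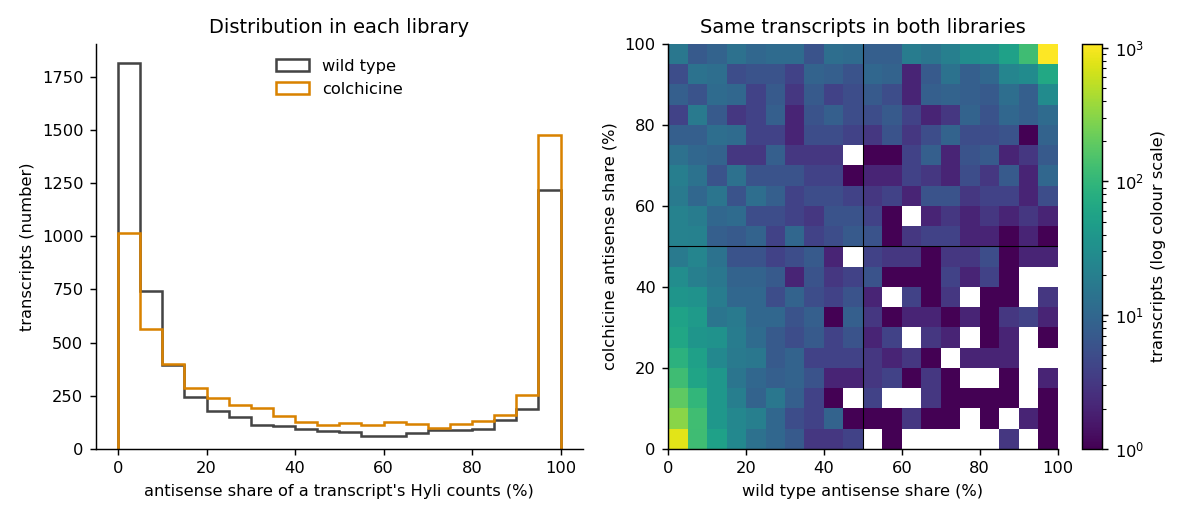
Antisense share of the Hyli counts of each of 6003 transcripts with at least 100 counts in each library: histograms for wild type and colchicine (left, x axis in percent, y axis number of transcripts) and the 2 shares of the same transcripts against each other (right, both axes in percent, colour for the number of transcripts on a log scale). Most transcripts lie near 0 or 100%, and the upper left field, mostly sense in wild type and mostly antisense in colchicine, holds 779 transcripts against 156 in the lower right.

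The majority strand was the same in most of these transcripts. It was sense in both libraries for 3141 (52.3%) and antisense in both for 1926 (32.1%). It changed from sense to antisense in 779 (13.0%) and from antisense to sense in 156 (2.60%), and both intervals were clear of 50% for 636 and 105 of them.

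Those 779 went from a median antisense share of 16.8% to 73.4%. Both strands moved, with median sense levels of 23.4 and 9.36 CPM, and median antisense levels of 9.60 and 35.6 CPM. They held 5.57% of wild-type and 5.37% of colchicine Hyli counts, so their weight hardly changed. In the Hywi immunoprecipitates the 623 of them with enough counts were almost wholly antisense, with a median of 99.2% in wild type and 99.9% in colchicine. Over all 4068 transcripts with enough Hywi counts these medians were 98.6% and 99.5%.

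For the 156 that changed the other way the median share was 69.9% and 31.4%. Their mRNA was more abundant, with a median of 34.3 CPM in wild-type siblings against 1.14 CPM over the 6003. Their Hywi counts were mostly sense, with a median antisense share of 14.7% in wild type and 34.0% in colchicine (95 transcripts).

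Among transcripts with at least 100 CPM over both strands in each library, the antisense share was raised most in t23838aep, t37561aep and t26967aep. In t23838aep sense counts went from 7431 to 244 and antisense counts from 455 to 1311, a share of 5.77% and 84.3%. Its Hywi antisense level was 109 and 438 CPM. The share was 2.79% and 79.6% in t37561aep and 14.1% and 90.7% in t26967aep. It was lowered most in 3 others, from 69.5% to 12.6% in t24008aep, from 98.9% to 66.6% in t29232aep and from 80.4% to 52.3% in t6199aep. In t29232aep the sense counts of Hyli went from 66.5 to 2317, 150-fold higher, and the Hywi sense level from 1.42 to 8038 CPM.

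The Hyli changes were then set against Hywi-bound antisense RNA, which guides cleavage in the ping-pong cycle. Of the 6057 transcripts compared for Hyli sense, 3937 (65.0%) were also compared for Hywi antisense. Coverage was uneven, at 433 of the 1439 higher (30.1%), 2581 of the 3444 between (74.9%) and 923 of the 1174 lower transcripts (78.6%). The median Hywi antisense log2 ratio was 2.40 in the higher class, -0.67 between and -1.79 in the lower class, against -0.62 over the 3937. Past 4-fold for Hywi antisense were 242 of the 433 higher ones upwards (55.9%) and 18 downwards (4.16%). Of the 923 lower ones, 430 (46.6%) were lower and 104 (11.3%) higher. Over the 3937 compared for both, 18.0% were higher and 32.3% lower. Over all 6220 transcripts compared for Hywi antisense, 26.2% were higher and 29.5% lower.

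The Hyli and Hywi antisense ratios ran more closely together. Their Spearman correlation across 4105 transcripts was 0.80, and 0.69, 0.63 and 0.58 at mean Hyli levels of at least 50, 100 and 500 CPM (1442, 816 and 235 transcripts). It was 0.36 for Hyli sense with Hywi antisense (3937 transcripts) and 0.66 for Hyli sense with Hywi sense (3095). Transcripts that share reads, and the 2 Hyli and 2 Hywi libraries that all points share, make these descriptions without a test. Of the 1000 transcripts higher for Hyli antisense and compared for Hywi antisense, 752 were higher for both, which is 75.2% of that list and 46.1% of all those higher for Hywi. Of 656 lower ones 534 were lower for both (81.4%, and 29.1% of all those lower for Hywi). Over the 4105 transcripts compared for both, 27.1% were higher and 25.5% lower for Hywi antisense.

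**Figure D4:**
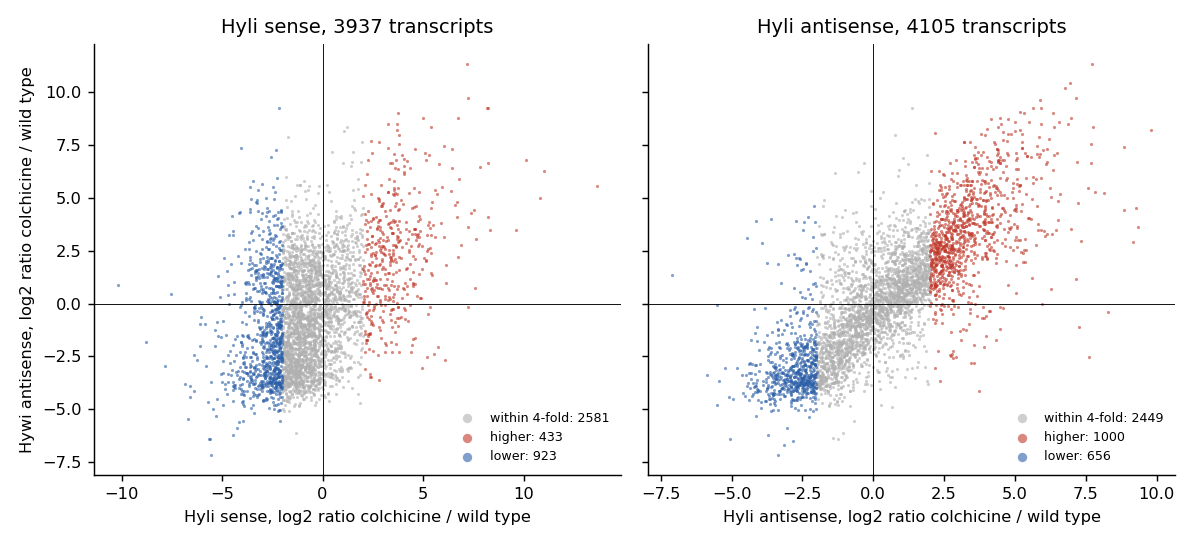
Log2 ratio of colchicine to wild type for Hywi antisense CPM + 1 (y axis) against that for Hyli sense (left, 3937 transcripts) and Hyli antisense (right, 4105 transcripts) CPM + 1 (x axes), coloured by Hyli class. The antisense points lie along a rising band (Spearman correlation 0.80), and the sense points are spread wider (0.36).

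Exceptions were few on the antisense strand, with 14 transcripts higher for Hyli and lower for Hywi (1.4% of the 1000) and 18 the other way (2.74% of the 656). The most counted wild-type antisense transcript, t24892aep, was 1 of these 18. Over the 6057 transcripts, the Spearman correlation of Hyli sense with Hywi antisense levels was 0.71 in wild type and 0.38 in colchicine. These transcripts include 1633 that reached 10 sense CPM in colchicine alone and 1139 that did so in wild type alone. Such entry bears on both correlations, and its effect was not tested. For Hyli antisense and Hywi antisense levels the correlations were 0.45 and 0.38 over 7615.

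The degradome ratios of the sense classes fell in the same order. The median degradome log2 ratio was 1.49 in the higher class (851 compared), -1.64 between (3001) and -3.81 in the lower class (969). Past 4-fold in the degradome, 347 of the 851 were higher (40.8%) and 639 of the 969 lower (65.9%), against 15.6% higher and 43.6% lower over the 4821 transcripts compared for both. Over all 7975 transcripts compared for the degradome these shares were 33.3% and 33.6%. Degradome counts in the lower class went from 36.9% to 11.2% of the library and those in the higher class from 4.25% to 13.5%. Without t22393aep and t14592aep, the 2 most counted in the wild-type degradome, the lower class went from 19.3% to 11.2% and the higher class from 6.87% to 13.5%. For the antisense classes the medians were -0.04, -1.18 and -1.76. The degradome libraries held 765341 and 176897 counts, so that 3 counts are 3.92 and 17.0 CPM and ratios of single transcripts rest on few counts. In colchicine the minimum of 10 CPM is under 3 counts. Entry and calls, and with them the percentages of the classes, can therefore rest on fewer than 3 counts. Shares of the smaller library have a 95% Wilson interval of at most 0.233 points to each side.

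The mRNA level of the transcripts differed by sense class. In wild-type siblings the median was 29.7 CPM in the higher class, 1.52 between and 0.774 in the lower class. It was 1.69 CPM over the 6057 compared transcripts and 0.355 over all 38747. On the log2(CPM + 1) scale the class medians in the 3 libraries were 5.02, 4.89 and 4.80 in the higher class, 1.48, 1.32 and 1.17 between, and 0.93, 0.82 and 0.75 in the lower class. These medians did not overlap between libraries, though the levels of single transcripts in the classes did. The 3 libraries repeat the mRNA values and not the Hyli classes. For the antisense classes the median levels were 0.703, 1.06 and 0.548 CPM, against 0.840 over the 7615 compared. At a minimum of 50 CPM the higher sense class, then 499 transcripts, had a median mRNA level of 2.19 on the log2 scale in place of 4.93.

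The higher class held transcripts of unlike mRNA level. The 1006 of them with under 10 Hywi antisense CPM in both Hywi libraries had medians of 1.49 sense CPM in wild type and 24.5 in colchicine and a median mRNA level of 65.0 CPM, and 848 of them (84.3%) had at least 10 CPM. They held 0.750% of wild-type and 13.1% of colchicine sense counts. The 433 with Hywi antisense had a median mRNA level of 0.571 CPM, and 31 (7.16%) had at least 10 CPM, while their share went from 2.22% to 28.7%. The same division was present between the thresholds, with mRNA medians of 69.7 CPM without (863 transcripts) and 1.01 CPM with Hywi antisense (2581), and smaller in the lower class, with 1.36 CPM without (251) and 0.715 with it (923).

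**Figure D5:**
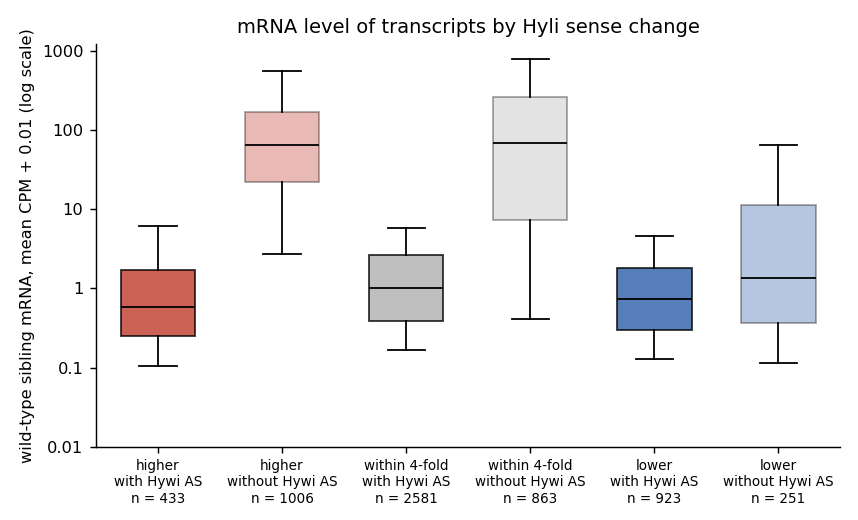
mRNA level in wild-type siblings (y axis, mean CPM of 3 libraries + 0.01, log scale) of the transcripts in each Hyli sense class, divided by whether they were also compared for Hywi antisense (Hywi AS). Boxes span the middle 50% with the median as a line, and whiskers reach the 10th and 90th percentiles. The medians without Hywi antisense lie at 65.0 CPM in the higher class and 69.7 CPM within 4-fold, and those with it at 0.571 and 1.01 CPM.

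How often sense transcripts of abundant mRNAs were called higher depended on how they entered the comparison. Of the 2436 sense transcripts with under 1 mRNA CPM 14.7% were higher and 27.5% lower, and of the 1888 with 1 to 10 CPM 10.8% and 21.5%. Of the 939 with 10 to 100 CPM 52.7% were higher and 8.52% lower, and of the 794 with at least 100 CPM 48.4% and 2.52%. The group with 10 to 100 CPM held 15.1% of wild-type and 13.2% of colchicine sense counts. The group with at least 100 CPM held 2.76% and 13.5%, of which t30823aep and t15818aep together made up 0.349% and 7.84%, and without them it held 2.41% and 5.63%. Of all 1733 with at least 10 mRNA CPM 50.7% were higher, but 1119 of them (64.6%) reached 10 sense CPM in colchicine alone, against 514 of the 4324 with less mRNA (11.9%), and such transcripts had to be higher there in some degree. Among transcripts with 10 sense CPM in both libraries, 62 of 484 with at least 10 mRNA CPM were higher (12.8%) and 50 lower (10.3%), against 165 of 2801 (5.89%) and 429 (15.3%) with less mRNA. With 50 sense CPM in either library the higher shares were 46.9% and 11.5%, again with entry through either library. On the antisense strand the higher share was 30.6%, 21.2%, 35.5% and 36.8% in the same order. Whether sense RNA of abundant mRNAs in the immunoprecipitates was bound to Hyli was not tested.

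Under knockdown of hywi in epithelial stem cells the classes differed by little. The median difference of mRNA, knockdown minus wild-type sibling on the log2 scale, was 0.04, -0.00 and 0.12 in the higher class for the libraries numbered 1, 2 and 3, 0.11, 0.04 and 0.22 between, and 0.12, 0.04 and 0.19 in the lower class. Over all 6057 compared transcripts it was 0.09, 0.02 and 0.19. Over all 38747 transcripts, with a median mRNA level of 0.355 CPM, it was 0.0 under each number. The higher class was below the class between by 0.064, 0.044 and 0.093 and below the lower class by 0.072, 0.044 and 0.061, so it was the lowest under each number. It was also the lowest with each mRNA library left out, in fits that share most of their libraries. The classes differ in mRNA level as well, and the bearing of that on these differences was not tested. With 3 values this difference was given no test.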

How the data were processed

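The immunoprecipitate and degradome tables, with separate columns for each strand of small RNA, hold estimated counts with fractions, raw per the file headers. The mRNA table holds estimated (expected) counts per replicate, deposited by the authors without normalization. The submitters' processing notes name cutadapt, Bowtie, RSEM 1.2.31 and, for mRNA, Trimmomatic 0.33 and Bowtie 1.1.2, without roles. Mismatches and length filters are not given in the sources used here. All 16 value columns were matched to samples by name, and 0 were left over.

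Each column was scaled to CPM by its own total. The ratio was log2((colchicine CPM + 1)/(wild-type CPM + 1)), and a call was at least 4-fold. Shares have Wilson intervals and ratios exact conditional binomial intervals (95%). Named were, per strand, the 4 transcripts with most CPM in each library and the 4 highest and 4 lowest ratios, the 3 largest rises and falls of antisense share, and the 3 smallest sense changes among the 100 largest, 40 in all. Border and exception transcripts, t22393aep and t14592aep were named after their values were seen. The members, lists and tests were chosen with earlier results of these data known. The calculation was run on simulated counts with planted changes steeper than the 4-fold rule and counting error only. That checks the arithmetic and does not bear on replicate spread, shared reads or the calls themselves. Of the transcript names, 0 of 38747 matched the reference gene table (assembly HydraT2T_AEP). Software was scipy 1.17.1, numpy 2.4.6, pandas 2.3.3 and matplotlib 3.10.9 under Python 3.11.15.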

Additional observations from a re-analysis of the deposited data

Results flagged for a closer look

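The antisense share of all counts moved in opposite directions in the immunoprecipitates, by 19.0 percentage points for Hyli and by -1.44 points for Hywi between wild type and colchicine. Each value rests on 1 library per condition, and the difference was not tested.

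The share of Hyli counts in the 100 largest transcripts also moved in opposite directions, by 12.3 points on the sense strand and by -6.50 points on the antisense strand of the same libraries. This difference was not tested either. Without the 10 largest transcripts of each library, 50% of the sense counts lay in 339 transcripts in wild type and 278 in colchicine, and 50% of the antisense counts in 220 and 282, so the directions were the same.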

How the results depend on the processing

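No paired analysis was possible because the comparison has 1 library a side and its results come from no test. Leaving out a Hyli library was not possible for the same reason. Of 161 values under another setting, 87 were within the range set for their result, 70 moved and 4 changed sign. The larger side of the splits of calls also changed, as given in the report.

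The 4 are medians over the compared transcripts. The sense median log2 ratio turned to 0.42 at a minimum of 1 CPM. The antisense median turned to -0.19 with the median ratio of all transcripts, to -0.0088 with that of the compared ones and to -0.035 over whole counts. Without a change of sign the sense median was -1.18 and -0.015 under these scalings in turn, -0.85 with the total of both strands, -0.82 at 50 CPM, -0.35 with 10 CPM added, -0.087 without the 10 largest transcripts and -0.51 over whole counts. The antisense median was 1.09 with the total of both strands, 0.59 at 1 CPM, 0.19 at 50 CPM and 0.34 with 10 CPM added.

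Counts of calls in the order sense higher, sense lower, antisense higher, antisense lower were as follows where they moved by over 1.5 times. The median ratio of all transcripts gave 2048 sense lower, and the total of both strands 618 antisense lower. A minimum of 1 CPM gave 2186 sense higher and 3359 antisense higher. A minimum of 50 CPM gave 499, 626, 844 and 689, a pseudocount of 10 CPM 557, 514, 872 and 593, and transcripts with whole counts alone 10, 15, 29 and 24. The last set holds 2302 transcripts but only 45 sense and 73 antisense members and 0.3302% of wild-type counts, so it covers little of the data.

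The antisense share was higher in colchicine by 26.4 points without the 100 largest transcripts of each strand and library, by 18.8 over transcripts with at least 10 CPM and by 7.61 over whole counts. Majority changes from sense to antisense and back were 2125 and 812 at 20 counts, 231 and 23 at 500 counts, 147 and 14 with shares under 20% and over 80%, and 3 and 0 over whole counts. Without the 10 largest transcripts 50% of colchicine sense counts lay in 278 transcripts.

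In the sense classes higher, between and lower, the median Hywi antisense ratio moved to 2.75 and -0.37 (higher, between) with the median ratio, to 1.97 (higher) at 50 CPM, and to 4.51 and -3.19 (higher, lower) over whole counts. The median degradome ratio moved to -0.95 and -3.53 (between, lower) with the median ratio, to 1.14, -1.95 and -4.002 at 50 CPM, and to 5.51, -3.62 and -4.83 over whole counts. The median mRNA level on the log2 scale moved to 4.47, 1.61 and 0.93 with the median ratio, to 2.19 and 1.103 (higher, lower) at 50 CPM, to 0.44, 0.33 and 0.30 over whole counts, and to 5.07 (higher) under a 0.1 CPM pseudocount. Over whole counts the order of the mRNA classes was the same, but with little difference. The causes were not tested.

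Leaving out each mRNA library in turn, median levels ran from 4.86 to 4.95 (higher), 1.23 to 1.397 (between) and 0.78 to 0.86 (lower), and knockdown differences from 0.02 to 0.10, 0.07 to 0.19 and 0.06 to 0.16. The fits without an mRNA library, the median ratio of the compared transcripts and the checks of median ratios, mRNA level bins, concentration, degradome shares and correlation were chosen after seeing the data. The correlation of the Hyli and Hywi antisense ratios was 0.67 at a minimum of 1 CPM, 0.81 at 50 CPM and 0.77 with a pseudocount of 10 CPM. Changes of transcripts under 3 counts in a library were not detectable beyond the bounds given.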
